A study of Mus musculus with 6 samples.

Results

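The genes described are 10 markers of Kupffer cells and other macrophages, read in the RNA of fasted mouse liver: Cd163, Clec4f, Vsig4, Timd4, Marco, Adgre1, Cd5l, Csf1r, Cd68 and Lyz2. They were taken by symbol from the count files, and all 10 were found among the 55536 gene identifiers listed. The study sequenced liver RNA of 3 CREBH-KO samples and 3 WT samples, all taken after a fast of 14 h. CREBH-KO marks a knockout of CREBH, a hepatocyte transcription factor encoded by Creb3l3, and the comparison asks how fasting liver expression differs without it. The labels give no strain, sex or age, do not say which exons or which cells the knockout affects, and do not say whether each sample came from its own mouse, so the p-values measure only the spread between these samples. Libraries are numbered within each genotype for reference, without pairing.

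Kupffer cells are the resident macrophages of the liver sinusoids, where they clear particles, complement-tagged microbes and worn red cells from portal blood. Clec4f is a C-type lectin found in mice on Kupffer cells, Timd4 marks the resident population, and Cd5l and Vsig4 are further genes of the resident state. Adgre1 encodes F4/80, Csf1r the receptor for the growth factor that keeps macrophages alive, and Cd68 and Lyz2 are shared by most macrophages. Cd163 takes up haptoglobin-haemoglobin complexes, Marco binds bacteria and particles, and Vsig4 is a complement receptor. CD163 is known from work in macrophages as a glucocorticoid-induced gene.

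Total counts in genes ran from 28106243 to 34146918 in CREBH-KO libraries and from 31679996 to 39288819 in WT libraries. Creb3l3 averaged 49.6 ± 6.79 CPM (read counts scaled to the normalised library size) in CREBH-KO and 486 ± 16.6 CPM in WT (SD, n = 3 each), and the groups did not overlap. For CREBH-KO 2 and CREBH-KO 3 the labels record the loss of the first-read file. How the counts of these 2 of the 3 CREBH-KO libraries were made is not stated, so any difference in their counting cannot be told apart from genotype where they decide a value. The closing section gives log2 fold changes for CREBH-KO 1 alone against WT for the markers and some other genes. For the remaining genes this limit stands, mostly without such a value. Only the sign in that fit is given there for Ctsc, Cd9 and Havcr1. WT 3 stood apart for macrophage genes: 9 of the 10 markers were highest there among the WT libraries, against 34.4% of all 15589 tested genes. In WT 3, 7 of the 10 reached at least 1.5 times the mean of WT 1 and WT 2, against 8.07% of tested genes. Values without WT 3 are therefore given for the markers and genes whose difference they move by over 1.5 times.

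The 250 bases before the RefSeq start site (GRCm38.p6) are shown for 4 markers, each 5′ to 3′ on the strand of the gene. They are Cd163, Vsig4 and Marco, Kupffer cell genes whose proportion to the other markers did not overlap between the genotypes, and Cd5l, one whose proportion did. Capitals mark GAGGAA, the core bound by PU.1 and other ETS factors, and TGTTCT, an element of glucocorticoid receptor binding sites, on either strand.
Cd163 (chr6:124304401-124304650, plus strand): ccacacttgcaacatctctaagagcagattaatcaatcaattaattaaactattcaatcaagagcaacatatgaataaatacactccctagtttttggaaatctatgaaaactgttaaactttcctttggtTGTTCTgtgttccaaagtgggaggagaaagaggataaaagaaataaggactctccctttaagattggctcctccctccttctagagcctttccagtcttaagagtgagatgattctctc
Vsig4 (chrX:96293439-96293688, minus strand): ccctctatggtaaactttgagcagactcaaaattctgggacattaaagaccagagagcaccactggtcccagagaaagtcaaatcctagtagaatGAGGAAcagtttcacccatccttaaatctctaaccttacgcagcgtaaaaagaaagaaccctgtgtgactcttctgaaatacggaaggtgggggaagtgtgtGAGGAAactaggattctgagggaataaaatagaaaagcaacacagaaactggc
Marco (chr1:120505025-120505274, minus strand): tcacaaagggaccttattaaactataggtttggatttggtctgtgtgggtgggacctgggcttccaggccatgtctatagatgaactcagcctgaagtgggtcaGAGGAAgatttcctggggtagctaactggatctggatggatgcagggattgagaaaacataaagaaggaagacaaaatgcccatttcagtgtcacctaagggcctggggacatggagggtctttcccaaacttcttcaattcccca
Cd5l (chr3:87357631-87357880, plus strand): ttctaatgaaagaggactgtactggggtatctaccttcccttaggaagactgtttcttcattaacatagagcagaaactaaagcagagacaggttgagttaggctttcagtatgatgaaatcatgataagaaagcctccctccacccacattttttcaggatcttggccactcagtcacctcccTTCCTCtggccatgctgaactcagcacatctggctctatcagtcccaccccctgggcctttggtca
TGTTCT in the Cd163 window begins 119 bases before the start site. The 2 cores of Vsig4 begin 155 and 53 bases before it, that of Marco 146 and that of Cd5l 66. Sequences matched 8 of the 10 markers, without Adgre1 and Csf1r. GAGGAA was present in 4 of these 8 windows (Cd5l, Cd68, Marco and Vsig4) and in 23.1% of 27025 windows of the same length. TGTTCT was present in 2 (Cd163 and Clec4f) and in 16.2% of all windows. TGAGTCA, the AP-1 site, was present in 1 (Cd68) and in 4.43% of all. TGACGTCA, the cyclic AMP response element, was present in none of the 8 and in 1.62% of all. All 4 motifs were searched on both strands; these are matches of letters in a short window and say nothing of binding.

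All 10 markers were detected in every library, from 28 counts for Timd4 in CREBH-KO 1 to 1467 for Clec4f in WT 3, and all passed the filter on low counts. Per kilobase of exon, Cd5l, Clec4f and Lyz2 had the highest levels. Lyz2 averaged 13.8 CPM per kb in CREBH-KO and 12.3 in WT. Cd5l averaged 11.8 CPM per kb in CREBH-KO and 13.6 in WT, and Clec4f 10.4 in CREBH-KO and 13.1 in WT. In WT these 3 neighbours in the order overlapped over libraries. In CREBH-KO, Lyz2 (12.5 to 14.5 CPM per kb) lay above Clec4f (9.44 to 11.4) in every library. There Cd5l (10.5 to 13.7) overlapped both in range, although Lyz2 was above Cd5l within each CREBH-KO library. Marco, Cd68, Vsig4 and Csf1r followed, at 3.67, 2.33, 2.33 and 2.02 CPM per kb in CREBH-KO, against 2.24, 2.18, 4.03 and 2.77 in WT. Adgre1 (0.816 in CREBH-KO, 1.06 in WT) and Timd4 (0.710 in CREBH-KO, 0.673 in WT) were low in both groups. Cd163 stood at 0.325 CPM per kb in CREBH-KO, below all other markers, and at 1.43 in WT. Its place among the WT markers rested on WT 3: in WT 2, Cd163 had 0.917 CPM per kb and Adgre1 1.34.

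Cd163 was the only one of the 10 markers to pass the test across all genes, and it fell in CREBH-KO. Cd163 (ENSMUSG00000008845, chromosome 6 from 124304656 to 124330527, plus strand, GRCm38) had 1.05, 2.43 and 1.84 CPM in CREBH-KO 1, 2 and 3, against 5.22, 5.01 and 13.2 CPM in WT 1, 2 and 3. Every CREBH-KO library lay below every WT library, and WT 3 was well above the other WT libraries. These levels rested on 36, 72 and 60 counts in CREBH-KO and 202, 160 and 406 counts in WT. The lowest, 36, had a 95% exact Poisson interval of 25.2 to 49.8, which covers counting error only. The log2 fold change was -2.14 ± 0.43 (SE, n = 3 each), 4.41-fold lower, with an adjusted p of 0.0160 (edgeR, quasi-likelihood test, Benjamini-Hochberg). Of all tested genes, 10.4% passed this test in either direction, 6.46% as lower and 3.91% as higher in CREBH-KO, so 1 call among 10 markers is near the background. Without WT 3 the log2 fold change of Cd163 was -1.54 ± 0.32 (adjusted p = 0.0254). The call was lost without CREBH-KO 3 (-2.17, adjusted p = 0.0601) and with CREBH-KO 1 alone against WT (-2.90, adjusted p = 0.109). In bulk liver, fewer cells of a type and less RNA per cell cannot be told apart, for Cd163 as for the other markers.

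**Figure D1:**
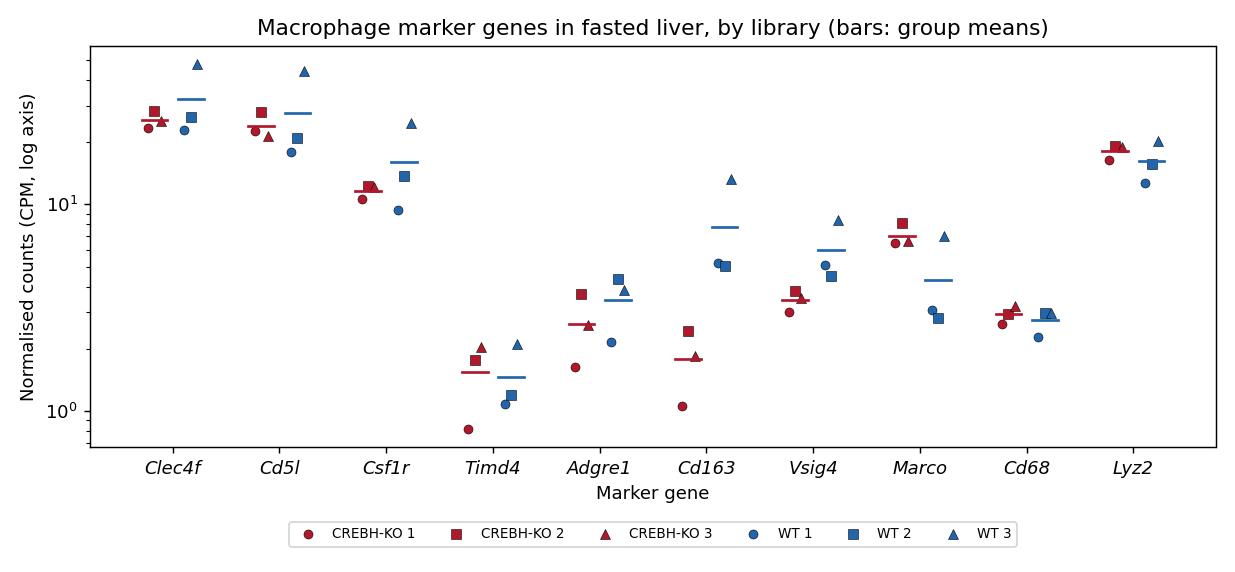
Normalised counts (CPM, log axis) of the 10 markers in each library, with CREBH-KO left of WT for each gene and bars at the group means. Cd163 lies between 1.05 and 2.43 CPM in CREBH-KO and between 5.01 and 13.2 CPM in WT, and WT 3 is the highest WT library for every marker but Adgre1.

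The resident Kupffer cell genes other than Cd163 and Vsig4 overlapped between the genotypes. Clec4f (ENSMUSG00000014542, chromosome 6 from 83644542 to 83656187, minus strand) had 23.3, 28.2 and 25.4 CPM in CREBH-KO 1, 2 and 3, against 22.9, 26.5 and 47.7 CPM in WT 1, 2 and 3. The CREBH-KO values lay within the WT range, and WT 1 and WT 2 lay close to them. The log2 fold change was -0.33 ± 0.24 (edgeR adjusted p = 0.425), and 0.05 ± 0.12 without WT 3 (adjusted p = 0.847). Cd5l (ENSMUSG00000015854, chromosome 3 from 87357881 to 87371073, plus strand), a secreted scavenger protein of macrophages, had 22.6, 28.0 and 21.5 CPM in CREBH-KO, against 17.9, 20.9 and 44.0 CPM in WT. The log2 fold change was -0.20 ± 0.29 (adjusted p = 0.723) with all libraries and 0.30 ± 0.14 without WT 3 (adjusted p = 0.246). For both genes the sign turned on WT 3.

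Csf1r (ENSMUSG00000024621, chromosome 18 from 61100598 to 61132149, plus strand) had 10.6, 12.2 and 12.1 CPM in CREBH-KO 1, 2 and 3, against 9.44, 13.7 and 24.8 CPM in WT 1, 2 and 3. Its log2 fold change was -0.45 ± 0.29 (edgeR adjusted p = 0.377) and 0.01 ± 0.18 without WT 3 (adjusted p = 0.983). Of its exonic bases, 15.1% lie within the antisense gene Hmgxb3. The strand option of the counting is not given, so reads from these bases may have been set aside. Adgre1 (ENSMUSG00000004730, chromosome 17 from 57358691 to 57483527, plus strand) had 1.64, 3.68 and 2.60 CPM in CREBH-KO and 2.15, 4.35 and 3.84 CPM in WT. Its groups overlapped, with CREBH-KO 1 and WT 1 the lowest of each (log2 fold change -0.38 ± 0.35, adjusted p = 0.537). Timd4 (ENSMUSG00000055546, chromosome 11 from 46810800 to 46844332, plus strand), a receptor for phosphatidylserine on dying cells, had 0.820, 1.76 and 2.05 CPM in CREBH-KO and 1.09, 1.19 and 2.11 CPM in WT. Its groups overlapped almost fully (log2 fold change 0.08 ± 0.40, adjusted p = 0.926; 0.43 ± 0.42 without WT 3, adjusted p = 0.600). Timd4 rested on 28 to 67 counts per library.

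Vsig4 and Marco stood on opposite sides. Vsig4 (ENSMUSG00000044206, X chromosome from 96247203 to 96293438, minus strand) had 3.01, 3.82 and 3.52 CPM in CREBH-KO 1, 2 and 3, against 5.07, 4.47 and 8.42 CPM in WT 1, 2 and 3. Every CREBH-KO library lay below every WT library, but the gap between CREBH-KO 2 and WT 2 was small. The log2 fold change of -0.79 ± 0.26 did not pass edgeR's quasi-likelihood test (adjusted p = 0.0854), and it passed in DESeq2 (-0.80, adjusted p = 0.0252), as did 14.5% of the genes tested there, and in edgeR when low counts were not filtered (-0.82, adjusted p = 0.00834), as did 8.49%. Without WT 3 it was -0.47 ± 0.21 (adjusted p = 0.231). Vsig4 and Cd163 were the only 2 of the 10 markers whose groups did not overlap. Among all tested genes 30.6% had groups that did not overlap, 15.7% with CREBH-KO below and 15% with CREBH-KO above, so 2 of 10 is no more than the background.

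Marco (ENSMUSG00000026390, chromosome 1 from 120474538 to 120505024, minus strand) had 6.47, 8.11 and 6.61 CPM in CREBH-KO 1, 2 and 3, against 3.08, 2.82 and 7.05 CPM in WT 1, 2 and 3. WT 3 lay among the CREBH-KO libraries, and WT 1 and WT 2 lay below all of them. The log2 fold change was 0.72 ± 0.33 and did not pass (edgeR adjusted p = 0.210). Without WT 3 it was 1.26 ± 0.20 and passed (adjusted p = 0.00851), in a fit where 6.79% of tested genes passed. It also passed when low counts were not filtered (0.69, adjusted p = 0.0356).

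**Figure D2:**
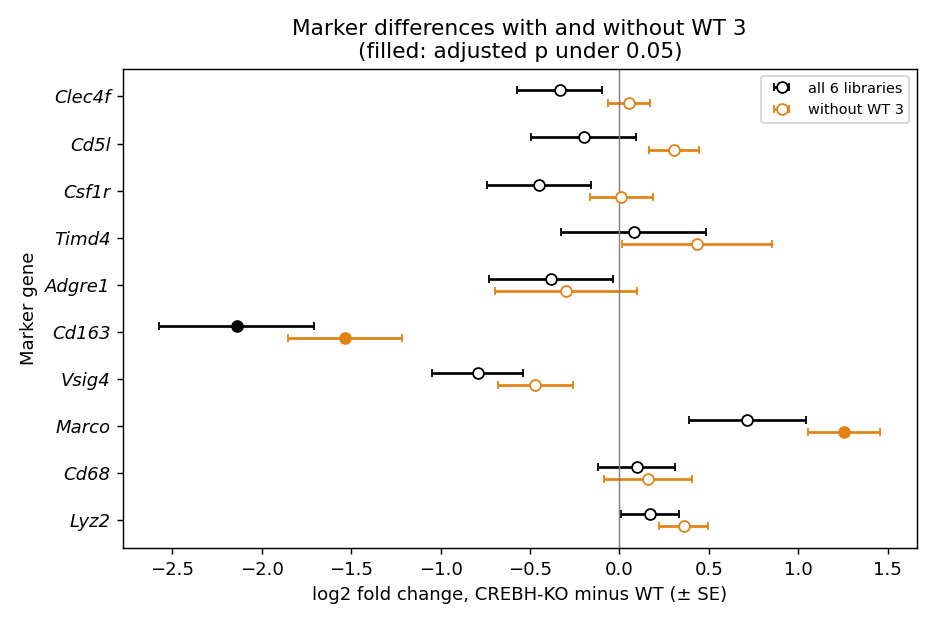
Log2 fold change, CREBH-KO minus WT, of each marker with its standard error, fitted with all 6 libraries and without WT 3. Filled points passed at an adjusted p under 0.05: Cd163 passed in both fits (-2.14 and -1.54), and Marco passed without WT 3 (1.26).

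The markers shared by most macrophages did not pass the test. Cd68 (ENSMUSG00000018774, chromosome 11 from 69664213 to 69666153, minus strand), a lysosomal glycoprotein, had 2.63, 2.94 and 3.21 CPM in CREBH-KO 1, 2 and 3, against 2.28, 2.97 and 2.99 CPM in WT 1, 2 and 3. Its log2 fold change was 0.10 ± 0.21 (edgeR adjusted p = 0.824) and 0.16 ± 0.25 without WT 3 (adjusted p = 0.761). Lyz2 (ENSMUSG00000069516, chromosome 10 from 117277331 to 117282321, minus strand), the macrophage lysozyme, had 16.4, 19.1 and 18.9 CPM in CREBH-KO and 12.6, 15.6 and 20.2 CPM in WT. The groups overlapped for both genes, and Lyz2 had a log2 fold change of 0.17 ± 0.16 (adjusted p = 0.557), or 0.36 ± 0.14 without WT 3 (adjusted p = 0.165). Lyz2 shares 15.4% of its 50-base windows with the neighbouring lysozyme gene Lyz1, so some of its reads may have been set aside. Lyz1 had 4.13, 2.67 and 1.90 CPM in CREBH-KO and 3.15, 5.54 and 5.04 CPM in WT (log2 fold change -0.65 ± 0.32, adjusted p = 0.240). Of the 5507 such windows of Cd163, 6 occurred in transcripts of other genes, and Clec4f, Vsig4, Timd4, Marco, Adgre1, Cd5l and Cd68 shared none.

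To set each marker against the others within the same liver, its CPM was divided by the geometric mean of the other 9. The geometric mean of the 9 markers without Cd163 was 5.70, 7.82 and 7.17 CPM in CREBH-KO 1, 2 and 3, and 5.42, 6.57 and 10.5 CPM in WT 1, 2 and 3. On this scale the log2 ratio of Cd163 was -2.44, -1.68 and -1.96 in CREBH-KO 1, 2 and 3, against -0.05, -0.39 and 0.33 in WT 1, 2 and 3. Cd163 was thus 3.97-fold lower relative to the other markers (log2 difference -1.99), and WT 3 no longer stood apart from the other WT libraries. The difference was -1.80 without WT 3, and between -2.17 and -1.79 with any 1 library left out. For Cd163 relative to the other members it was -1.93 against the 7 other Kupffer cell markers alone, -2.29 against 29 general macrophage genes and -1.97 against the complement genes C1qa, C1qb and C1qc, which macrophages make. These ratios are a description with no test.

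Relative to the other 9 markers, Marco averaged a log2 ratio of 0.27 ± 0.19 in CREBH-KO and -0.96 ± 0.33 in WT (SD, n = 3 each), a difference of 1.23, and the groups did not overlap. Vsig4 averaged -0.88 ± 0.11 in CREBH-KO and -0.35 ± 0.24 in WT, a difference of -0.52, also with no overlap. Lyz2 averaged 1.79 ± 0.17 in CREBH-KO and 1.27 ± 0.22 in WT, a difference of 0.52 with no overlap. The other 6 markers overlapped. Their differences ran from -0.14 for Adgre1 to 0.42 for Cd68, with Clec4f at 0.01, Csf1r at -0.08, Cd5l at 0.20 and Timd4 at 0.35. Of 15546 tested genes with counts in every library, 12.9% had ratios to the mean of the 10 markers that did not overlap, against 4 of the 10 markers. This is not a like background, because the markers make up that mean and most share its rise in WT 3. Nothing is therefore read from the gap between these shares. A marker that moves shifts the ratios of the others in the opposite direction, since each stands in the denominator of the rest. The fall of Cd163 thus raised the ratios of the other 9 in CREBH-KO. Small differences, such as 0.01 for Clec4f, therefore depend on Cd163 and do not show a level gene.

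**Figure D3:**
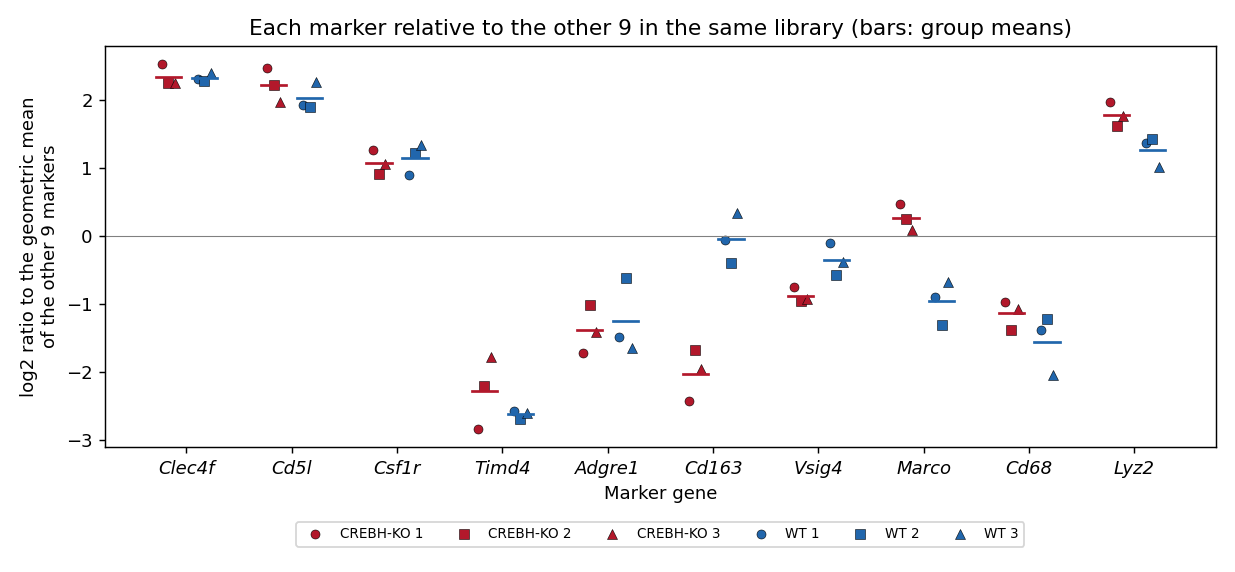
Log2 ratio of each marker's CPM to the geometric mean of the other 9 markers in the same library, with CREBH-KO left of WT and bars at group means. Cd163 averages -2.03 in CREBH-KO and -0.04 in WT, while Clec4f averages 2.34 in CREBH-KO and 2.33 in WT. The denominator of Clec4f includes Cd163, whose fall raises the ratio of Clec4f in CREBH-KO.

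Other genes of Kupffer cells did not pass the test. Calls in this list and those that follow stand beside shares of all tested genes. These shares were 10.4% in edgeR, 14.5% in DESeq2 and 8.49% when low counts were not filtered. The share of all tested genes with an unadjusted p under 0.05 was not taken. Counts at that threshold thus have no background, and nothing is read from them. Of 17 further Kupffer cell genes, 16 were tested and none passed in edgeR, limma-voom or edgeR's robust fit, while 1 passed in DESeq2, 1 of 17 in edgeR when low counts were not filtered, and 1 had an unadjusted p under 0.05 in edgeR. Their median log2 fold change was -0.15, that of the 10 markers -0.27 and that of all tested genes 0.02. Without WT 3 the medians were 0.12 for the 16 genes and 0.11 for the 10 markers. The gene that passed in both of these was Fcna, a ficolin of the lectin complement pathway, with 6.26, 8.65 and 7.01 CPM in CREBH-KO 1, 2 and 3, against 10.3, 9.29 and 12.5 CPM in WT 1, 2 and 3. Its groups did not overlap (log2 fold change -0.55 ± 0.17, edgeR adjusted p = 0.0740, DESeq2 adjusted p = 0.0278). Siglec1, a sialic acid receptor of resident macrophages, overlapped between the groups (-0.83 ± 0.38, edgeR adjusted p = 0.212), and was at -0.36 without WT 3 (adjusted p = 0.575). So did Spic, a transcription factor of macrophages that recycle iron (0.91 ± 0.48, edgeR adjusted p = 0.279), which was at 1.57 without WT 3 (adjusted p = 0.0818). Of the 16 genes, 14 were highest in WT 3 among the WT libraries.

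Among 29 tested general macrophage and leukocyte genes, 2 rose and 26 did not pass. Ctsc, a lysosomal peptidase that hepatocytes also express, rose to 81.0 ± 9.99 CPM in CREBH-KO, against 38.6 ± 4.05 CPM in WT (log2 fold change 1.07 ± 0.11, edgeR adjusted p = 7.77e-04). Ptprc, which encodes the leukocyte antigen CD45, rose to 5.24, 6.59 and 5.08 CPM in CREBH-KO 1, 2 and 3, against 1.91, 2.32 and 3.25 CPM in WT 1, 2 and 3 (1.18 ± 0.24, adjusted p = 0.0151). Its call was lost without WT 2 or CREBH-KO 2. Mpeg1, a pore-forming protein of phagocytes, did not overlap between the groups, was higher in CREBH-KO and did not pass (0.65 ± 0.22, adjusted p = 0.106), and it passed in DESeq2 (adjusted p = 0.0275) and when low counts were not filtered (adjusted p = 5.22e-04). The median of the list was 0.18, and 0.37 without WT 3, where 3 genes rose and none fell. Of the 29 genes, 26 were highest in WT 3 among the WT libraries.

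Of 14 genes of recruited, monocyte-derived and lipid-associated macrophages, 9 were tested and 1 passed. Cd9, a tetraspanin also present on many other cells, rose to 20.4 ± 1.31 CPM in CREBH-KO, against 8.02 ± 0.493 CPM in WT (log2 fold change 1.35 ± 0.11, edgeR adjusted p = 1.86e-04). The median of the 9 was -0.08, and without WT 3 that of 10 tested genes was 0.58. These medians are not over the same genes, and the part of WT 3 in the change of sign was not tested. Itgam, the integrin CD11b of myeloid cells, had 0.468, 0.609 and 0.398 CPM in CREBH-KO 1, 2 and 3, against 0.233, 0.0626 and 0.130 CPM in WT 1, 2 and 3, and did not pass (1.73 ± 0.53, adjusted p = 0.0728). Itgam passed the filter on low counts only through CREBH-KO, so it could only be higher there, and nothing is read from its lack of overlap. Of its exonic bases, 68.7% also belong to Gm49368 on the same strand. Of 9 tested inflammatory genes of activated macrophages, none passed in edgeR, DESeq2, limma-voom or edgeR's robust fit, and 4 had an unadjusted p under 0.05 in edgeR. With no filter on low counts, 3 passed. The other 8 of the 17 listed did not pass the filter on low counts, which a gene high in 1 group alone can pass, so no count of directions is given. The 4 were the chemokine genes Cxcl10 (0.90 ± 0.29, edgeR adjusted p = 0.0896), Ccl5 (1.08 ± 0.41, adjusted p = 0.133) and Cxcl1 (0.97 ± 0.39, adjusted p = 0.157), and the cytokine gene Il1b (1.67 ± 0.59, adjusted p = 0.112). Il1b passed without WT 1 (adjusted p = 0.0438) and Cxcl1 without CREBH-KO 2 (adjusted p = 0.0338).

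Cd163 acts in a chain that clears haemoglobin: Hp encodes haptoglobin, which binds free haemoglobin, Hpx encodes haemopexin, which binds free haem, and Hmox1 the haem oxygenase that degrades haem. Of 14 tested genes of this chain, 3 rose and 1, Cd163, fell in edgeR, against 3.91% and 6.46% of all tested genes. In DESeq2, 4 rose and 2 fell, Cd163 among them, where 14.5% of tested genes passed in either direction. Without WT 3, 2 rose and 2 fell, Cd163 again among them, where 6.79% passed. Groups did not overlap for 5 of the 14 with CREBH-KO above and for 4, Cd163 among them, with CREBH-KO below. Those shares were 15% and 15.7% among all tested genes. Hp rose to 5844, 5452 and 5426 CPM in CREBH-KO 1, 2 and 3, against 3056, 2711 and 3700 CPM in WT 1, 2 and 3 (log2 fold change 0.82 ± 0.13, edgeR adjusted p = 0.00466). Hpx rose to 4007 ± 161 CPM in CREBH-KO, against 3032 ± 228 CPM in WT (0.40 ± 0.10, adjusted p = 0.0332). Both are acute phase proteins made by hepatocytes, and their groups did not overlap. Hmox1 rose to 11.5, 14.2 and 17.2 CPM in CREBH-KO, against 7.96, 6.41 and 10.4 CPM in WT (0.79 ± 0.20, adjusted p = 0.0399). The call of Hpx was lost without any 1 of WT 2, WT 3, CREBH-KO 2 and CREBH-KO 3, and that of Hmox1 without any 1 of WT 1, WT 2, CREBH-KO 2 and CREBH-KO 3. Hp kept its call without any 1 library and lost it with CREBH-KO 1 alone against WT (adjusted p = 0.0710).

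**Figure D4:**
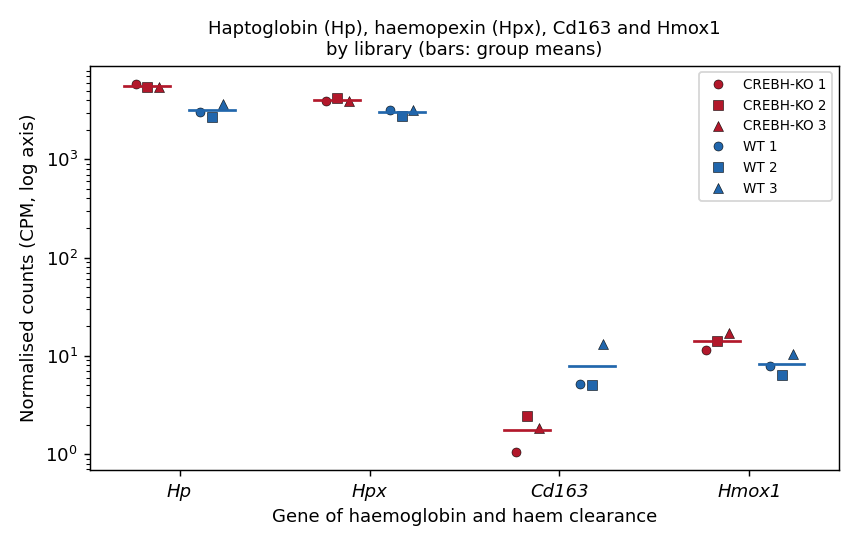
Normalised counts (CPM, log axis) of Hp, Hpx, Cd163 and Hmox1 in each library, with CREBH-KO left of WT and bars at group means. The 4 genes shown are those of the chain that passed in edgeR. Hp, Hpx and Hmox1 are higher in CREBH-KO, and Cd163 is lower. The 2 groups do not overlap for any of them, which is no separate result, because genes that pass mostly have separate groups. The 30.6% of all tested genes without overlap, passed or not, is not a like background.

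Genes known from work on the control of CD163, among them glucocorticoid and interleukin receptors and the sheddase gene, gave no call in edgeR. Of 15 tested, none passed in edgeR, DESeq2, limma-voom or edgeR's robust fit, 3 passed when low counts were not filtered, and 3 had an unadjusted p under 0.05. The glucocorticoid-induced genes Tsc22d3 and Fkbp5 had opposite signs, at 0.83 ± 0.26 (edgeR adjusted p = 0.0820) and -1.02 ± 0.37 (edgeR adjusted p = 0.120) on the log2 scale. Tsc22d3 averaged 183 ± 62.7 CPM in CREBH-KO and 103 ± 29.8 CPM in WT. Fkbp5 ran from 48.4 to 74.3 CPM in CREBH-KO and from 57.6 to 205.4 CPM in WT. Both overlapped between the groups, as did Il6ra, a receptor for interleukin-6 (-0.65 ± 0.30, adjusted p = 0.217). Tsc22d3 passed without CREBH-KO 1, and Fkbp5 and Il6ra passed without WT 1 (adjusted p of 0.0203, 0.00725 and 0.0238). Without WT 3, Fkbp5 was at -0.49 (adjusted p = 0.329) and Il6ra at -0.37 (adjusted p = 0.502).

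The growth factor and Notch signals that hold Kupffer cells in their niche were represented by 17 tested genes, of which 1 rose. Jag1, a Notch ligand, rose to 5.60 ± 0.692 CPM in CREBH-KO, against 2.95 ± 0.255 CPM in WT (log2 fold change 0.92 ± 0.18, edgeR adjusted p = 0.0147). Its call was lost without WT 2 or CREBH-KO 3. Dll4, the Notch ligand of sinusoidal endothelium, was higher in CREBH-KO with no overlap, at 3.32 ± 0.253 CPM in CREBH-KO and 1.88 ± 0.558 CPM in WT. It did not pass (0.82 ± 0.26, adjusted p = 0.0764), although it did in DESeq2 (adjusted p = 0.0378) and without WT 3 (1.08, adjusted p = 0.0380). Csf1, the ligand of Csf1r, overlapped between the groups, at 8.27 ± 1.19 CPM in CREBH-KO and 5.76 ± 1.83 CPM in WT (0.52 ± 0.24, adjusted p = 0.218; 0.28 without WT 3, adjusted p = 0.408).

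Relatives of the markers were read beside them. Among 13 tested genes with scavenger receptor cysteine-rich domains, the domain shared by Cd163, Cd5l and Marco, Cfi rose and Cd163 fell. Cfi, complement factor I of hepatocytes, averaged 591 ± 14.8 CPM in CREBH-KO and 456 ± 13.2 CPM in WT (log2 fold change 0.38 ± 0.07, edgeR adjusted p = 0.0149). Its call was lost without WT 2 or CREBH-KO 3. Scara5, a ferritin receptor, had 1.79, 0.811 and 0.275 CPM in CREBH-KO 1, 2 and 3, against 1.68, 3.47 and 10.4 CPM in WT 1, 2 and 3, with overlap and WT 3 far above the rest. It did not pass (-2.42 ± 0.73, adjusted p = 0.0697), and it passed without WT 1 (adjusted p = 0.0224), without CREBH-KO 1 (adjusted p = 0.0454) and when low counts were not filtered (adjusted p = 6.39e-07). Without WT 3, Scara5 was at -1.41 (adjusted p = 0.215). Loxl4, a lysyl oxidase with these domains, did not pass (1.19 ± 0.45, adjusted p = 0.134).

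In the TIM family, to which Timd4 belongs, the other 3 genes passed as higher in CREBH-KO, as did 3.91% of all tested genes. Havcr1 and Havcr2 passed the filter on low counts only through CREBH-KO, where they were high, so their calls could only be rises. No count of directions is therefore read from this family. All 4 genes lie close together on chromosome 11: Havcr2 from 46454935, Timd2 from 46668960, Havcr1 from 46735080 and Timd4 from 46810800. They are thus not independent cases, and the part of their shared location was not tested. Havcr1 had 91, 85 and 88 counts in CREBH-KO 1, 2 and 3, against 1, 1 and 0 counts in WT 1, 2 and 3. For equal depth Havcr1 had 139 times as many (95% exact interval 38.1 to 1152, which covers counting error only), and it passed (edgeR adjusted p = 9.60e-05). Timd2, a ferritin receptor, averaged 69.1 ± 6.69 CPM in CREBH-KO and 48.6 ± 4.93 CPM in WT (log2 fold change 0.51 ± 0.10, edgeR adjusted p = 0.0160). Havcr2, an immune checkpoint receptor, had 11, 12 and 12 counts in CREBH-KO and 0, 2 and 2 counts in WT, and its call (edgeR adjusted p = 0.0284) was lost without any 1 library. That of Timd2 was lost without WT 3 or CREBH-KO 3. Adgre4, a relative of Adgre1 on macrophages, did not pass (-0.35 ± 0.28, adjusted p = 0.473; -0.22 without WT 3, adjusted p = 0.740).

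Receptors and ligands of phagocytosis and complement went both ways: of 18 tested, 1 rose and 3 fell. The scavenger receptor gene Scarb1, which takes up HDL lipids in hepatocytes, fell (log2 fold change -0.88 ± 0.16, edgeR adjusted p = 0.0113), as did Cd36, a fatty acid and lipoprotein receptor (-0.66 ± 0.12, adjusted p = 0.0115). Gas6, the ligand of the receptors AXL and MERTK, fell (-0.43 ± 0.11, adjusted p = 0.0422). Mfge8, a bridge between dying cells and phagocytes, rose to 17.4 ± 2.67 CPM in CREBH-KO, against 10.2 ± 2.71 CPM in WT (0.78 ± 0.20, adjusted p = 0.0368). The call of Scarb1 was lost without WT 2 (adjusted p = 0.0520). That of Gas6 was lost with 2 other scalings and without any 1 of WT 2, WT 3, CREBH-KO 1 and CREBH-KO 2. That of Mfge8 was lost without any 1 library except WT 3. Itgax, the dendritic cell integrin CD11c, was above the WT libraries in each CREBH-KO library, at 1.02 ± 0.0829 CPM in CREBH-KO and 0.361 ± 0.193 CPM in WT, without passing (1.47 ± 0.43, adjusted p = 0.0626). It passed in DESeq2 and without WT 1.

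Of 12 lysosomal genes, Grn rose and Lipa fell. Grn, which encodes progranulin, averaged 581 ± 50.4 CPM in CREBH-KO and 337 ± 42.9 CPM in WT (log2 fold change 0.79 ± 0.11, edgeR adjusted p = 0.00319). Lipa, the lysosomal acid lipase, averaged 157 ± 2.11 CPM in CREBH-KO and 237 ± 8.51 CPM in WT (-0.59 ± 0.07, adjusted p = 0.00157). Both genes are expressed by hepatocytes as well as macrophages. Lamp1, a lysosomal membrane protein, did not pass in edgeR (-0.25 ± 0.08, adjusted p = 0.0879) and passed in DESeq2 (adjusted p = 0.0344).

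Markers of the other liver cells were read in the same libraries. Of 12 sinusoidal endothelial markers, none passed in edgeR, DESeq2, limma-voom or edgeR's robust fit, 4 had an unadjusted p under 0.05 and 2 passed with no filter on low counts. Their summed level was 204.9 to 226.6 CPM in CREBH-KO and 195.8 to 263.6 CPM in WT, and 11 of the 12 were highest in WT 3 among the WT libraries. Groups did not overlap for 1 of the 12 with CREBH-KO above and for 2 with CREBH-KO below, against 15% and 15.7% of all tested genes. The hyaluronan receptor gene Lyve1 was higher in CREBH-KO with no overlap (1.24 ± 0.44, edgeR adjusted p = 0.114). The receptor gene Stab2 was lower, also with no overlap (-0.25 ± 0.09, adjusted p = 0.115). The receptor gene Clec4g (-0.34 ± 0.14, adjusted p = 0.165) and the membrane trafficking gene Ehd3 (-0.39 ± 0.16, adjusted p = 0.168) had log2 fold changes below 0, with overlap. Lyve1 passed without WT 1 or WT 3, and Ehd3 without WT 1. Without WT 3, Ehd3 was at -0.23 (adjusted p = 0.408). Of 11 stellate cell markers, Dcn (0.56 ± 0.09, adjusted p = 0.00552) and Rgs5 (0.68 ± 0.11, adjusted p = 0.00572) rose. The summed level of the 11 was 222.0 to 249.6 CPM in CREBH-KO and 163.5 to 191.5 CPM in WT, with no overlap. Dcn alone made up 113.4 to 131.1 CPM of this in CREBH-KO and 78.9 to 90.0 CPM in WT. The sum is therefore no separate result for the stellate cell markers as a set. Of 4 tested cholangiocyte markers, Sox9 rose (0.96 ± 0.23, adjusted p = 0.0312), a call lost without any 1 of WT 1, WT 2, CREBH-KO 1 and CREBH-KO 2. The summed level of 7 tested T and NK cell markers was 3.24 to 4.77 CPM in CREBH-KO and 2.07 to 5.33 CPM in WT. That of 6 B cell markers was 9.43 to 12.5 CPM in CREBH-KO and 5.07 to 11.3 CPM in WT, and all 6 were highest in WT 3 among the WT libraries. None of these 13 lymphocyte markers passed in edgeR, DESeq2 or limma-voom, 1 in each list had an unadjusted p under 0.05, and 1 B cell marker, Ighm, rose without WT 3. Of the tested markers of neutrophils (2), dendritic cells (5), erythroid cells (5) and hepatocytes (6), none passed in edgeR. In DESeq2, 1 dendritic and 1 hepatocyte marker passed, and the same number in each had an unadjusted p under 0.05 in edgeR. The summed level of the 10 macrophage markers was 88.6 to 110.3 CPM in CREBH-KO and 81.8 to 174.3 CPM in WT, where only WT 3 lay above the CREBH-KO range. The part of these other cells in the results for the macrophage markers was not tested.

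Likeness to the markers over the 6 libraries was measured by Pearson's coefficient on log2 CPM among 12555 other genes with a mean of at least 1 CPM, as a description with no test. The genes most like Cd163 were Klc4 (0.989), Pex26 (0.986), Hcfc1r1 (0.985), Wee1 (0.985) and Vars2 (0.982). Of these, Wee1, a kinase that restrains entry into mitosis, matched Cd163 in size too, at 1.59 ± 0.438 CPM in CREBH-KO and 7.58 ± 5.10 CPM in WT, where WT 3 was the highest. Its log2 fold change was -2.25 ± 0.45 (edgeR adjusted p = 0.0149), and the call was lost without CREBH-KO 3. Klc4 fell by 0.41 on the log2 scale (adjusted p = 0.0237), a call lost when any 1 library other than WT 1 was left out, and Pex26, Hcfc1r1 and Vars2 did not pass (adjusted p of 0.0991, 0.121 and 0.261). The genes most like the mean of the other 9 markers were Nup88 (0.991), Lgmn (0.984), Gm11808 (0.975), Tinagl1 (0.968) and Mrpl2 (0.966). Lgmn, the lysosomal protease legumain, had 28.3 to 34.7 CPM in CREBH-KO and 26.3 to 41.0 CPM in WT, with WT 3 the highest. None of these 5 passed (edgeR adjusted p of 0.652 to 0.991, unadjusted p of at least 0.425).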

How the data were processed

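Liver RNA of 3 CREBH-KO and 3 WT samples was sequenced in paired-end mode, per the labels. The deposited files hold raw read counts for each gene, 1 file a library, made with HTSeq per the labels' titles. Which aligner, genome build and strand option were used is not given in the sources used here. The 55536 identifiers all matched GENCODE M21 (GRCm38), which supplied symbols and positions. Of 246 listed genes 244 matched. HTSeq's summary lines (27.4% to 31.2% of listed reads) were left out.

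After filterByExpr with a minimum count of 10 and a minimum total of 15, 15589 genes were tested, with TMM factors of 0.967 to 1.05. CREBH-KO was compared with WT by edgeR's quasi-likelihood test (R 4.3.3, edgeR 4.0.16), without covariates, with Benjamini-Hochberg adjustment over all tested genes and a threshold of 0.05. Standard errors were obtained as the size of the log2 fold change over the root of the F statistic. Tests are two-sided. DESeq2 1.42.0 and limma-voom (limma 3.58.1) were alternatives. The fit was tested on simulated data.

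The markers and lists were chosen with earlier results of these data known. Genes named are the 10 markers, Creb3l3, up to 4 genes of smallest p per list, and the 5 genes most like Cd163 and the 5 most like the other markers. C1qa, C1qb and C1qc serve as a denominator. The result for 1 gene of the general macrophage list is not reported here.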

Additional observations from a re-analysis of the deposited data

How the results depend on the processing

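The number of genes changed was 1616, and ranged from 658 to 1806 with 1 library left out (lowest without WT 2, also 838 without CREBH-KO 2 and 778 without CREBH-KO 3). It was 2456 with no filter on low counts and 228 with CREBH-KO 1 alone against WT. Of the calls, 37.7% were higher in CREBH-KO with TMM and 52.8% with library size alone. The number of markers changed was 1. It ranged from 0 to 2 with 1 library left out, and was 3 with no filter, 2 in DESeq2 and 0 with CREBH-KO 1 alone. The log2 fold change of Cd163 was -2.14, from -2.43 to -1.54 with 1 library left out and -2.90 with CREBH-KO 1 alone, where the call was lost. With 1 library left out, the log2 fold change of Clec4f ranged from -0.54 to 0.052, of Cd5l from -0.44 to 0.30, of Csf1r from -0.73 to 0.011, of Timd4 from -0.19 to 0.43 and of Cd68 from -0.037 to 0.17. With CREBH-KO 1 alone, Timd4 was at -0.85, Cd68 at -0.080 and Lyz2 at 0.0046. In the same fit Clec4f was at -0.49, Vsig4 at -1.01, Marco at 0.57, Adgre1 at -1.09, Cd5l at -0.31 and Csf1r at -0.61. Among called genes of the other lists, Grn was at 0.66, Lipa at -0.64, Cd36 at -0.66, Dcn at 0.60 and Rgs5 at 0.51. Each kept its sign, but these calls rest also on CREBH-KO 2 and CREBH-KO 3. Ctsc, Cd9 and Havcr1 kept their sign in that fit too. With any 1 library left out their calls held, at edgeR adjusted p of at most 0.00347, 0.00209 and 0.00102. Of the genes most like the other markers, Nup88 reversed to 0.0022 with upper-quartile factors and 0.043 with library size alone, Mrpl2 to 0.015 and 0.056, and Lgmn to 0.030 and 0.073, 0.0050 with the stricter filter and 0.023 in limma-voom. With 1 library left out, Nup88 ranged from -0.099 to 0.042, Lgmn from -0.14 to 0.21, Gm11808 from -0.22 to 0.055, Tinagl1 from -0.26 to 0.033 and Mrpl2 from -0.066 to 0.046. The cause of these shifts was not tested. The ratio of Cd163 to the other markers moved by less than 1 SD under every denominator and library left out that was tried. No paired analysis was possible because the labels give no replicate numbers, and those used here follow the order of deposit. Over all libraries Timd4, Cd68 and Adgre1 had the fewest counts of the markers, and counting error was not separated from the spread between samples.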
